A study of Mus musculus with 12 samples.

Results

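Mmp14, Plekha6, Atp2a3, Kbtbd11, Ceacam1, Cd80 and Nphs1 are 7 genes of mouse embryonic stem (ES) cells whose RNA was much lower with the BET inhibitor JQ1 in at least one culture setting. They are 7 of the 52550 gene rows in the table of each library. The genes were selected on measured values, namely their level with JQ1 against DMSO and how that response differed between media or with loss of GSK3. Their responses, the differences between settings and their levels are therefore given as descriptions, with no test. Each gene was found by its identifier, with the version removed, through GENCODE mouse release M21, and all 7 passed the filter on low counts that kept 16987 genes.

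The study measured polyadenylated RNA by sequencing in 12 libraries, in 6 groups of 2. Unmodified ES cells in 2iL received JQ1 or DMSO, GSK3 knockout ES cells in serum/LIF received JQ1 or DMSO, and unmodified ES cells in serum/LIF received JQ1 or DMSO. JQ1 was given at 100 nM, and all cells were harvested after 60 h. The cytokine LIF was present in every group. 2iL is a serum-free medium in which MEK and GSK3 are both blocked by small molecules, and those cells grew on gelatin. Cells in serum/LIF had been kept on a feeder layer of mitomycin-treated mouse fibroblasts, from which they were split onto gelatin for the treatment. The labels do not say which GSK3 gene was disrupted, whether the knockout line is 1 clone, or whether the 2 libraries of a group came from separate cultures. Where they did not, the p-values below measure only a technical spread.

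JQ1 displaces BET proteins, readers of acetylated histones, from chromatin, and genes that depend on these proteins lose transcription. GSK3 marks β-catenin for destruction, so that inhibition or loss of GSK3 lets β-catenin build up and act with TCF/LEF factors. In 2iL the same kinase is inhibited while MEK is blocked as well, which keeps ES cells in a naive state.

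The 7 genes have different roles. Mmp14 encodes a metalloproteinase anchored in the plasma membrane that cleaves matrix and activates the secreted protease MMP2. Atp2a3 encodes SERCA3, a pump that returns calcium to the endoplasmic reticulum. Ceacam1 and Cd80 encode surface proteins of the immunoglobulin superfamily, an adhesion receptor and a ligand of the T cell proteins CD28 and CTLA-4. Nphs1 encodes nephrin, an adhesion protein best known from the slit diaphragm of kidney podocytes. Plekha6 encodes a protein with a pleckstrin homology domain, and Kbtbd11 one with BTB and kelch domains, a family that includes adaptors of cullin 3 ubiquitin ligases. Those last genes are not known to encode proteins that span a membrane, so the set as a whole is not one of surface genes.

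Libraries held between 17869865 and 48723436 expected counts, and the deepest was replicate 1 of unmodified cells in serum/LIF with DMSO. Mitochondrial genes took 4.67% to 8.43% of counts with JQ1 and 6.41% to 11.85% with DMSO. Their part in the values below was not tested. Gsk3a averaged 24.1 ± 0.985 CPM in knockout cells and 71.0 ± 8.22 CPM in unmodified cells, both in serum/LIF with DMSO (SD, n = 2 each). Gsk3b averaged 46.9 ± 6.13 CPM in knockout cells and 73.5 ± 1.80 CPM in unmodified cells (SD, n = 2 each), so RNA of both genes was still detected in the knockout line. Of all genes tested with edgeR, 28.4% passed an adjusted p of 0.05 between JQ1 and DMSO in 2iL, 34.1% in knockout cells and 21.3% in unmodified cells in serum/LIF. The difference of the JQ1 response passed for 4.16% of genes between 2iL and serum/LIF and for 4.37% between knockout and unmodified cells. Both JQ1 libraries lay below both DMSO libraries for 7 of the 7 genes in 2iL, against 36.7% of all genes tested, and for 7 of 7 in knockout cells, against 39.4%. In unmodified cells in serum/LIF this held for 4 of the 7 genes, Mmp14, Ceacam1, Cd80 and Nphs1, against 31.8% of all genes. Since the genes were chosen for lower levels with JQ1, nothing is read from these counts.

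Promoter windows from RefSeq, running from 250 bases before to 50 bases after the transcript start on GRCm38.p6, were given for 6 of the 7 genes, Kbtbd11 being the exception. Both strands were searched for 4 motifs of 6 letters, and no matches in these windows overlapped. The core of a TCF/LEF site, CTTTGA, was found in 3 of the 6 windows, those of Plekha6, Cd80 and Nphs1, and in 16% of all 32851 windows. The E-box CACGTG was found in the Ceacam1 window and in 7.15% of all windows. The TATA box sequence, TATAAA, was found in the Cd80 window just after the start, on the strand opposite to the gene, and in 13.6% of all windows. A nuclear receptor half-site, AGGTCA, was found in none of the 6 windows and in 16.3% of all. Windows of Mmp14 and Atp2a3 held none of these motifs. The windows of Plekha6 and Cd80, 2 genes with CTTTGA but with different responses in serum/LIF, and that of Ceacam1, the gene with the weakest response in 2iL, are shown for the 250 bases before the start. The Plekha6 and Cd80 windows lie inside their genes, which begin at 133164210 and 38455561 in GENCODE, so they belong to internal starts. Capitals mark the TCF/LEF core in Cd80, its reverse complement in Plekha6, and the E-box in Ceacam1.
Plekha6, chr1:133245847-133246096, plus strand: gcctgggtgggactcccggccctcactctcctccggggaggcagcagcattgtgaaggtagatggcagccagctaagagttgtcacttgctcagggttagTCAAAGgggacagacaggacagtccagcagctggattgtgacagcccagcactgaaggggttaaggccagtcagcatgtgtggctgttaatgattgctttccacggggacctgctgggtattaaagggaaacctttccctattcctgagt
Cd80, chr16:38458683-38458932, plus strand: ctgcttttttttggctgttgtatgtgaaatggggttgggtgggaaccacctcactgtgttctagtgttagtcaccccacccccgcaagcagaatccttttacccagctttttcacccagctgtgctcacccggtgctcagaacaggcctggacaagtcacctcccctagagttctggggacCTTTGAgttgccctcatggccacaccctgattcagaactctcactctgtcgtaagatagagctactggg
Ceacam1, chr7:25477626-25477875, minus strand: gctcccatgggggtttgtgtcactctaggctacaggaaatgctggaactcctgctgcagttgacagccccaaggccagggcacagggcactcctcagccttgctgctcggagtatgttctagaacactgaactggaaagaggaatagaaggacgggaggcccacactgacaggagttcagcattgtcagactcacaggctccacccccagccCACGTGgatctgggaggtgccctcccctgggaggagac
The Nphs1 window lies inside an exon of a longer annotated transcript and is not printed. The ratio of observed to expected CpG in these windows was 0.714 for Atp2a3, 0.504 for Nphs1, 0.425 for Mmp14, 0.179 for Plekha6, 0.164 for Cd80 and 0.122 for Ceacam1, against a median of 0.384 over all windows. A motif match describes the letters of a window and does not show that a factor binds there.

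Levels are given per library as CPM, the count relative to the TMM-scaled size of its library, replicate 1 before replicate 2, and responses as fitted log2 fold changes of JQ1 over DMSO with their standard error. The share of RNA left with JQ1 is the ratio of pooled counts scaled to library size, with an exact 95% binomial interval that covers counting error only. In these bulk samples, fewer cells that express a gene and less RNA per cell cannot be told apart. The floor of 3 counts corresponded to between 0.0611 and 0.171 CPM, depending on the library.

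**Figure D1:**
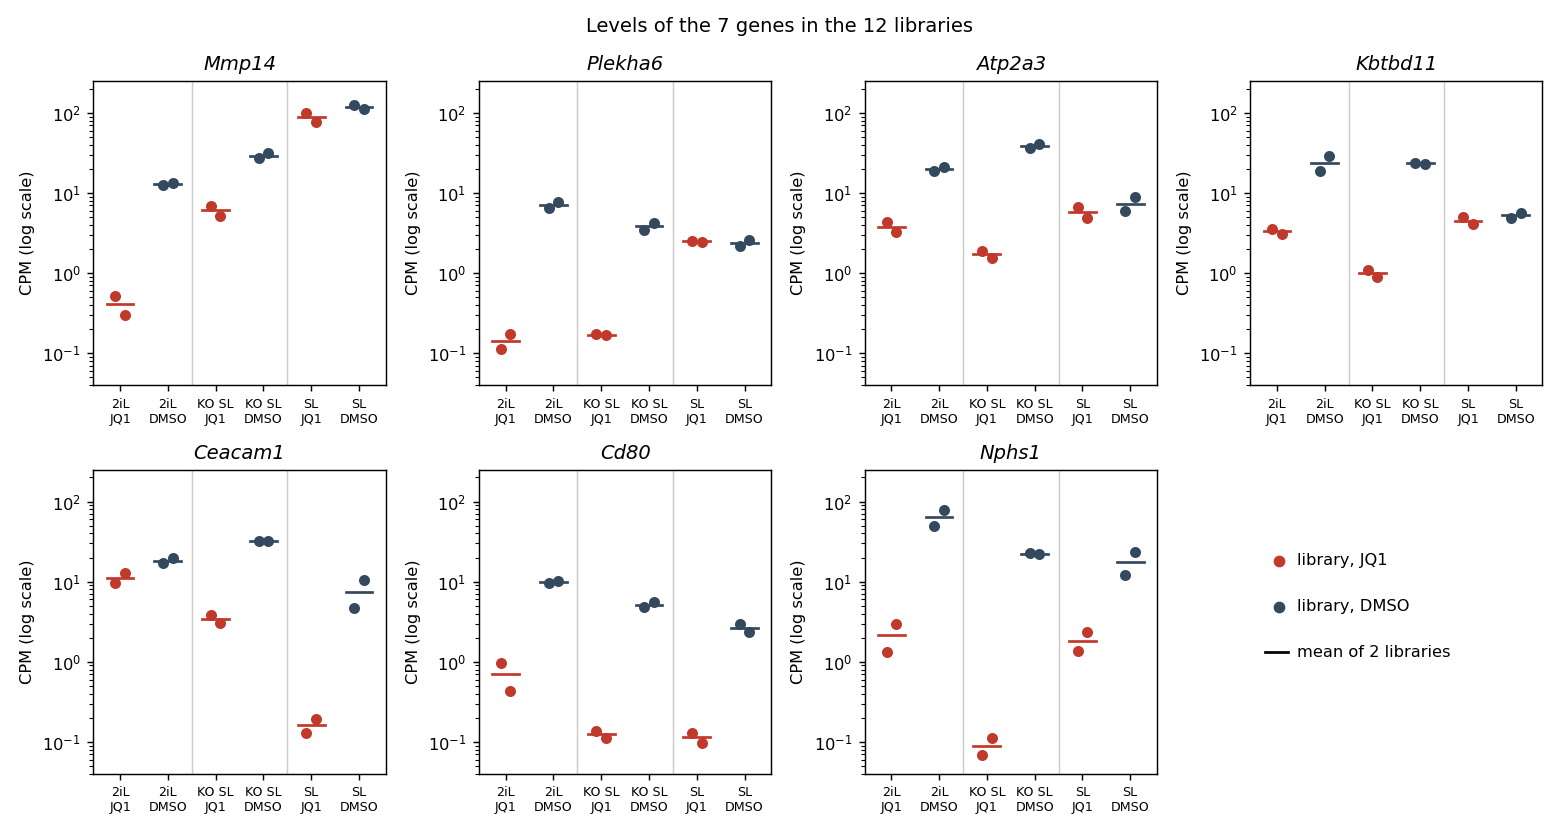
Level of each gene in the 12 libraries, in CPM on a log axis. Each point is a library and each line the mean of 2 libraries; KO is GSK3 knockout and SL is serum/LIF. Mmp14, Plekha6, Atp2a3 and Kbtbd11 were low with JQ1 in 2iL and in knockout cells. In unmodified cells in serum/LIF, Plekha6, Atp2a3 and Kbtbd11 overlapped their DMSO level, and Mmp14 lay somewhat below its own. Ceacam1 was low with JQ1 there and stayed above 9 CPM in 2iL, and Cd80 and Nphs1 were low with JQ1 in all 3 settings.

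Mmp14, Plekha6, Atp2a3 and Kbtbd11 shared one pattern, in that they kept most of their RNA with JQ1 in unmodified cells in serum/LIF and little of it in 2iL and in knockout cells. Mmp14 (ENSMUSG00000000957.10, chr14:54431612-54445364, plus strand) had 0.513 and 0.302 CPM with JQ1 in 2iL, from 9 and 7 counts, against 12.7 and 13.4 CPM with DMSO. In knockout cells it had 6.90 and 5.24 CPM with JQ1 and 27.4 and 31.2 CPM with DMSO. Unmodified cells in serum/LIF had 100.2 and 76.8 CPM with JQ1 and 126 and 112 CPM with DMSO. No groups next to each other in the order of levels overlapped, and the order ran from unmodified cells in serum/LIF at the top to 2iL with JQ1 at the bottom. JQ1 left 3.02% of Mmp14 RNA in 2iL (1.71% to 4.94%), 21.5% in knockout cells (18.8% to 24.4%) and 73.1% in unmodified cells in serum/LIF (70.4% to 76.0%). The log2 fold changes were -5.03 ± 0.28 in 2iL, -2.25 ± 0.18 in knockout cells and -0.43 ± 0.15 in unmodified cells in serum/LIF.

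Mmp14 differed from the other 6 genes in that its DMSO level was lower outside unmodified cells in serum/LIF, at 0.11 times that level in 2iL and 0.246 times in knockout cells. Fibroblasts, the cells of the feeder layer, are known to express Mmp14. The summed level of 12 fibroblast markers was 6.21 and 4.80 CPM with JQ1 and 12.1 and 8.02 CPM with DMSO in 2iL, where 7 or 8 of the 12 had no counts. It was 256 and 194 CPM with JQ1 and 343 and 539 CPM with DMSO in knockout cells, and 1585 and 1109 CPM with JQ1 and 1731 and 1410 CPM with DMSO in unmodified cells in serum/LIF. Of 10 such markers tested, 2 fell with JQ1 in 2iL, 6 in knockout cells and 8 in unmodified cells in serum/LIF, and 1 to 3, 4 to 6 and 5 to 8 did so when a library was left out. The sum in unmodified cells in serum/LIF was mostly Tagln, Acta2 and Col1a1. Tagln averaged 720 CPM with JQ1 and 462 CPM with DMSO (0.64, adjusted p = 0.0869). Acta2 averaged 312 CPM with JQ1 and 338 CPM with DMSO (-0.12, adjusted p = 0.776). Col1a1 fell in that setting, with 208 CPM with JQ1 and 500 CPM with DMSO (-1.26, adjusted p = 0.00188). In 2iL most of the sum was Pdgfrb, with 5.22 CPM with JQ1 and 8.25 CPM with DMSO. The markers that fell there were Thy1, with 0.0285 CPM with JQ1 and 0.896 CPM with DMSO (-4.91, adjusted p = 0.000974), and the collagen gene Col1a1, with 0.0854 CPM with JQ1 and 0.735 CPM with DMSO (-3.23, adjusted p = 0.0263). Leaving out replicate 1 of DMSO (-2.92, adjusted p = 0.126) or replicate 2 of JQ1 (-2.07, adjusted p = 0.182) ended the Col1a1 call. The part of fibroblasts in the Mmp14 level was not tested.

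**Figure D2:**
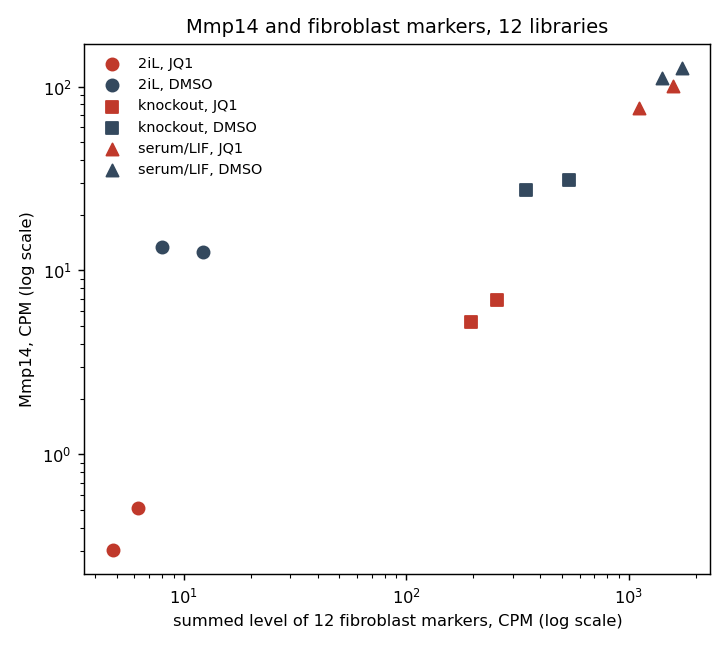
Mmp14 level against the summed level of 12 fibroblast markers, both in CPM on log axes, 1 point per library. At the same treatment both measures were lowest in 2iL and highest in unmodified cells in serum/LIF, and within 2iL the marker sum lay between 4.80 and 12.1 CPM while Mmp14 lay at 0.513 and 0.302 CPM with JQ1 and at 12.7 and 13.4 CPM with DMSO.

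Plekha6 (ENSMUSG00000041757.16, chr1:133164210-133303435, plus strand) was close to the floor with JQ1 in 2 settings. It had 0.114 and 0.173 CPM with JQ1 in 2iL, from 2 and 4 counts, against 6.43 and 7.74 CPM with DMSO. In knockout cells it had 0.172 and 0.167 CPM with JQ1, from 5 and 3 counts, against 3.45 and 4.19 CPM with DMSO. The groups overlapped in unmodified cells in serum/LIF, with 2.52 and 2.47 CPM with JQ1 and 2.20 and 2.56 CPM with DMSO. The share left with JQ1 was 2.08% in 2iL (0.757% to 4.58%), 4.47% in knockout cells (1.89% to 9.04%) and 108.4% in unmodified cells in serum/LIF (84.1% to 139%). Fitted log2 fold changes were -5.54 ± 0.37, -4.45 ± 0.37 and 0.08 ± 0.26 in that order of settings. With DMSO, Plekha6 stood 2.98 times as high in 2iL and 1.61 times as high in knockout cells as in unmodified cells in serum/LIF. With JQ1 it stood at 0.0574 times the level of unmodified cells in serum/LIF in 2iL and 0.0679 times in knockout cells, from few counts.

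Atp2a3 (ENSMUSG00000020788.15, chr11:72961169-72993044, plus strand) had 4.39 and 3.23 CPM with JQ1 and 18.9 and 21.1 CPM with DMSO in 2iL. Knockout cells had 1.89 and 1.56 CPM with JQ1 and 36.2 and 40.8 CPM with DMSO, with the lowest and the highest levels of this gene. Unmodified cells in serum/LIF had 6.73 and 4.89 CPM with JQ1 and 5.95 and 8.80 CPM with DMSO, and these libraries overlapped. JQ1 left 18.7% of Atp2a3 RNA in 2iL (15.6% to 22.2%), 4.59% in knockout cells (3.63% to 5.73%) and 86.7% in unmodified cells in serum/LIF (74.1% to 101.2%). On the log2 scale these were changes of -2.40 ± 0.23, -4.46 ± 0.26 and -0.32 ± 0.23. With DMSO the level in 2iL was 2.71 times, and in knockout cells 5.22 times, that in unmodified cells in serum/LIF.

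Kbtbd11 (ENSMUSG00000055675.6, chr8:15011025-15033333, plus strand) ran close to Atp2a3. It had 3.59 and 3.10 CPM with JQ1 and 18.9 and 28.7 CPM with DMSO in 2iL, and 1.10 and 0.891 CPM with JQ1 and 24.0 and 23.3 CPM with DMSO in knockout cells. Unmodified cells in serum/LIF had 4.95 and 4.07 CPM with JQ1 and 4.91 and 5.66 CPM with DMSO, which overlapped. The share left was 13.9% in 2iL (11.5% to 16.7%), 4.31% in knockout cells (3.16% to 5.77%) and 88.4% in unmodified cells in serum/LIF (73.9% to 105.5%). Log2 fold changes were -2.84 ± 0.23, -4.54 ± 0.26 and -0.22 ± 0.22. With DMSO, Kbtbd11 stood 4.51 times as high in 2iL and 4.47 times as high in knockout cells as in unmodified cells in serum/LIF. With JQ1 it stood at 0.741 times the level of unmodified cells in serum/LIF in 2iL and at 0.221 times in knockout cells. Atp2a3 stood at 0.656 and 0.297 times. For both genes, as for Plekha6, 2iL and knockout cells thus had the higher level under DMSO and the lower level under JQ1.

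The responses of these 4 genes set apart the 2iL and knockout settings in different ways. Mmp14 had the larger response in 2iL, by a log2 fold change of -5.03 against -2.25 in knockout cells. Atp2a3 and Kbtbd11 had the larger response in knockout cells, at -4.46 and -4.54 against -2.40 and -2.84 in 2iL. The difference from unmodified cells in serum/LIF, in log2 units, was -4.60 ± 0.33 in 2iL and -1.83 ± 0.23 in knockout cells for Mmp14, -5.62 ± 0.47 and -4.53 ± 0.46 for Plekha6, -2.09 ± 0.33 and -4.14 ± 0.34 for Atp2a3, and -2.62 ± 0.32 and -4.32 ± 0.34 for Kbtbd11. Both differences use the same serum/LIF libraries.

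**Figure D3:**
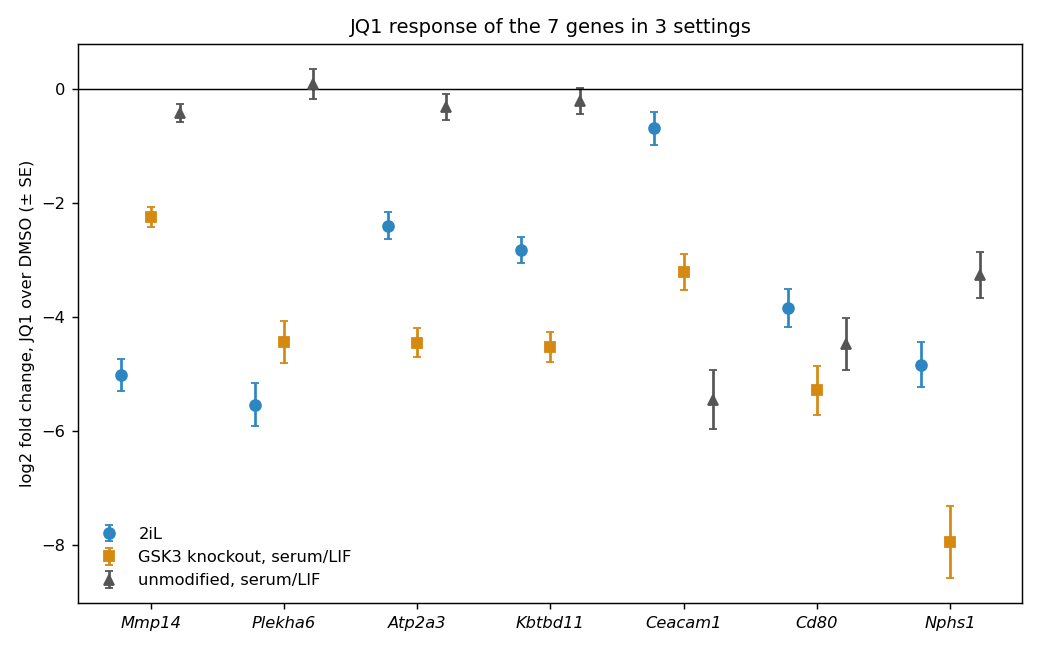
Fitted log2 fold change of JQ1 over DMSO for each gene in 3 settings, with bars for 1 standard error. Mmp14, Plekha6, Atp2a3 and Kbtbd11 lay between -0.43 and 0.08 in unmodified cells in serum/LIF and between -5.54 and -2.25 in the other settings, Ceacam1 was least changed in 2iL at -0.70, and Cd80 lay between -5.29 and -3.85 in all settings.

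Ceacam1 (ENSMUSG00000074272.10, chr7:25461707-25477603, minus strand) had the opposite dependence on the setting. In 2iL it kept 9.54 and 13 CPM with JQ1 against 16.9 and 19.8 CPM with DMSO. Knockout cells had 3.87 and 3.06 CPM with JQ1 against 32.6 and 32.6 CPM with DMSO. Unmodified cells in serum/LIF had 0.130 and 0.194 CPM with JQ1, from 3 and 4 counts, against 4.64 and 10.4 CPM with DMSO. No group overlapped its DMSO counterpart, but the DMSO libraries in serum/LIF were far apart. JQ1 left 62.7% of Ceacam1 RNA in 2iL (55.8% to 70.3%), 10.95% in knockout cells (9.26% to 12.9%) and 2.55% in unmodified cells in serum/LIF (1.02% to 5.29%). In log2 units the responses were -0.70 ± 0.29, -3.21 ± 0.32 and -5.46 ± 0.52, and the response differed from that in unmodified cells in serum/LIF by 4.76 ± 0.63 in 2iL and 2.25 ± 0.71 in knockout cells. With JQ1 the level in 2iL was 69.6 times, and in knockout cells 21.4 times, that in unmodified cells in serum/LIF, where few counts remained. Ceacam2, a near-identical copy that could share reads, had at most 5.96 counts in any library and at most 1.59% of the counts of the pair.

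Cd80 (ENSMUSG00000075122.4, chr16:38455561-38496335, plus strand) was low with JQ1 in every setting. It had 0.968 and 0.431 CPM with JQ1 and 9.50 and 10.2 CPM with DMSO in 2iL. It had 0.137 and 0.111 CPM with JQ1, from 4 and 2 counts, and 4.83 and 5.53 CPM with DMSO in knockout cells. Unmodified cells in serum/LIF had 0.130 and 0.0968 CPM with JQ1, from 3 and 2 counts, and 2.93 and 2.35 CPM with DMSO. The share left was 6.73% in 2iL (4.39% to 9.94%), 2.47% in knockout cells (0.895% to 5.47%) and 4.13% in unmodified cells in serum/LIF (1.33% to 9.82%), with overlapping intervals. The log2 fold changes were -3.85 ± 0.33, -5.29 ± 0.43 and -4.48 ± 0.46, and they differed from that in unmodified cells in serum/LIF by 0.63 ± 0.63 in 2iL and -0.81 ± 0.84 in knockout cells. With DMSO, Cd80 stood 3.72 times as high in 2iL and 1.96 times as high in knockout cells as in unmodified cells in serum/LIF.

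Cd80 is best known from antigen-presenting cells. The summed level of 8 leukocyte markers was 5.31 and 6.22 CPM with JQ1 and 18.0 and 14.3 CPM with DMSO in 2iL, 3.42 and 3.23 CPM with JQ1 and 9.76 and 10.4 CPM with DMSO in knockout cells, and 3.37 and 2.78 CPM with JQ1 and 9.55 and 9.80 CPM with DMSO in unmodified cells in serum/LIF. Of 5 such markers tested, 3 fell with JQ1 in 2iL, 3 in knockout cells and 4 in unmodified cells in serum/LIF. When a library was left out these counts were 2 to 3, 2 to 3 and 1 to 2. Most of the sum was Cd68, a lysosomal gene, with averages of 5.07 CPM with JQ1 and 12.6 CPM with DMSO in 2iL. The defining leukocyte gene Ptprc (CD45) averaged at most 0.0859 CPM in any group and the macrophage gene Adgre1 at most 0.0358 CPM. Csf1r averaged 0.0909 CPM with JQ1, below the floor, and had no counts with DMSO in 2iL (3.90, adjusted p = 0.146). In unmodified cells in serum/LIF it fell to 0.136 CPM with JQ1 against 0.65 CPM with DMSO (-2.20, adjusted p = 0.0478). That call was lost under DESeq2 (adjusted p = 0.273). In knockout cells Csf1r had a value of 0.20 (adjusted p = 0.919). Some other markers of the list were lower with JQ1 in 2iL, as Cd80 was. Spi1, a transcription factor of myeloid cells, fell there to 0.0216 CPM with JQ1 against 1.15 CPM with DMSO (-5.28, adjusted p = 0.00174). It also fell in knockout cells (-3.21, adjusted p = 0.0235) and in unmodified cells in serum/LIF (-3.67, adjusted p = 0.03). Neither of these further calls held with each library left out, and DESeq2 did not call the one in serum/LIF (adjusted p = 0.087). The integrin gene Itgam averaged 0.194 CPM with JQ1 and 1.13 CPM with DMSO in 2iL (-2.38, adjusted p = 0.0386). Its call was lost under DESeq2 (adjusted p = 0.0895), when only the libraries compared were fitted (adjusted p = 0.0744), or without either DMSO library of unmodified cells in 2iL or serum/LIF, either knockout JQ1 library, 2iL JQ1 replicate 1 or serum/LIF JQ1 replicate 2 (adjusted p from 0.0504 to 0.188). Itgam did not pass in knockout cells (-1.50, adjusted p = 0.24) or in unmodified cells in serum/LIF (-1.29, adjusted p = 0.517). The T cell gene Cd3e averaged 0.365 CPM with JQ1 and 1.10 CPM with DMSO in 2iL (-1.58, adjusted p = 0.101). In knockout cells it had no counts with JQ1 and averaged 0.805 CPM with DMSO (adjusted p = 0.00247). Its fall in unmodified cells in serum/LIF (-2.80, adjusted p = 0.0497) was lost under DESeq2 (adjusted p = 0.0542). The part of such cells in the Cd80 level was not tested.

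Nphs1 (ENSMUSG00000006649.17, chr7:30458315-30487223, plus strand) was also low with JQ1 in all 3 settings, but to a different depth. It had 1.31 and 2.98 CPM with JQ1 and 49.1 and 78.2 CPM with DMSO in 2iL. In knockout cells it had 0.0687 and 0.111 CPM with JQ1, from 2 counts in each library, against 22.6 and 22.2 CPM with DMSO. Unmodified cells in serum/LIF had 1.35 and 2.32 CPM with JQ1 and 12.2 and 23.5 CPM with DMSO. JQ1 left 3.55% of Nphs1 RNA in 2iL (2.85% to 4.37%), 0.379% in knockout cells (0.103% to 0.974%) and 11.7% in unmodified cells in serum/LIF (9.21% to 14.7%). The fold reduction in knockout cells was 263.7, with a counting interval from 102.6 to 970.2. The log2 fold changes were -4.84 ± 0.40, -7.95 ± 0.63 and -3.27 ± 0.40, which differed from unmodified cells in serum/LIF by -1.57 ± 0.57 in 2iL and -4.68 ± 0.93 in knockout cells. Without knockout JQ1 replicate 1 the change in knockout cells was -7.58, and without replicate 2 it was -8.24. With DMSO, Nphs1 stood 3.56 times as high in 2iL as in unmodified cells in serum/LIF, while knockout cells and unmodified cells in serum/LIF overlapped.

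Kirrel2, which encodes a nephrin-like adhesion protein that binds nephrin, lies head to head with Nphs1 on chr7:30447534-30457690, minus strand, with 624 bases between the annotated genes. It fell in all 3 settings. Kirrel2 had 1.82 and 2.93 CPM with JQ1 and 44.7 and 60.1 CPM with DMSO in 2iL, 0.515 and 0.780 CPM with JQ1 and 20.8 and 22.9 CPM with DMSO in knockout cells, and 1.26 and 1.36 CPM with JQ1 and 7.80 and 15.6 CPM with DMSO in unmodified cells in serum/LIF. The log2 fold changes were -4.43 ± 0.33 in 2iL (adjusted p = 4.1e-06), -5.12 ± 0.39 in knockout cells (adjusted p = 3.3e-06) and -3.13 ± 0.35 in unmodified cells in serum/LIF (adjusted p = 0.00011). The differences from unmodified cells in serum/LIF were -1.31 ± 0.50 in 2iL (adjusted p = 0.184) and -2.0 ± 0.57 in knockout cells (adjusted p = 0.0663). With edgeR neither passed, but without a filter on low counts both did (-1.33, adjusted p = 0.00373, and -1.98, adjusted p = 3.3e-05), and DESeq2 called the second (-1.95, adjusted p = 0.00666). The ratio of Nphs1 to Kirrel2 CPM was 0.720 and 1.01 with JQ1 and 1.10 and 1.30 with DMSO in 2iL, and 1.07 and 1.72 with JQ1 and 1.56 and 1.51 with DMSO in unmodified cells in serum/LIF. It was 0.133 and 0.143 with JQ1 and 1.08 and 0.969 with DMSO in knockout cells, so that Nphs1 was much lower than Kirrel2 in both knockout JQ1 libraries.

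**Figure D4:**
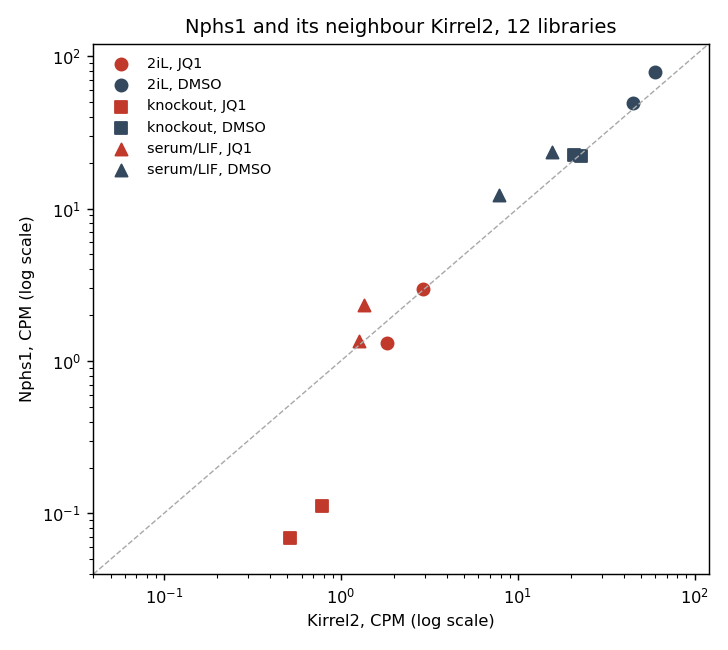
Nphs1 against Kirrel2 in the 12 libraries, both in CPM on log axes, with the dashed line where they are equal. Libraries lay near the line except the 2 knockout JQ1 libraries, where Nphs1 stood at 0.0687 and 0.111 CPM and Kirrel2 at 0.515 and 0.780 CPM.

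The antisense gene Nphs1os overlaps Nphs1, and the strand setting of the counting is not given in the sources used here, so reads of the pair cannot be told apart where they overlap. Nphs1os fell in 2iL (-3.34 ± 0.56, adjusted p = 0.00124) and in knockout cells, where it had no counts with JQ1 and averaged 0.734 CPM with DMSO (taking 3 counts in each JQ1 library as the limit of detection, at least 5.44-fold lower; adjusted p = 0.00361). It also fell in unmodified cells in serum/LIF (-3.90 ± 0.96, adjusted p = 0.0142), a call lost without replicate 2 of the DMSO group (-3.33, adjusted p = 0.0618) or replicate 1 of the JQ1 group (-2.90, adjusted p = 0.0904). Antisense genes also overlap Plekha6 (Gm19461), Kbtbd11 (5830468F06Rik and Gm37844) and Ceacam1 (4732471J01Rik). The summed level of podocyte markers was mostly Podxl and ran from 6.20 to 7.16 CPM in 2iL, from 39.3 to 68.0 CPM in knockout cells and from 162.5 to 312.2 CPM in unmodified cells in serum/LIF, while Nphs1 was highest in 2iL with DMSO. With edgeR 0 of the 5 markers tested passed in 2iL, and 0 did so at an unadjusted p under 0.05, with a library left out or with DESeq2. In knockout cells 1 fell, Podxl (-0.57, adjusted p = 0.0215), which was lost without DMSO replicate 1 (-0.46, adjusted p = 0.152) or without JQ1 replicate 2 there (-0.42, adjusted p = 0.178). In unmodified cells in serum/LIF Podxl rose (0.63, adjusted p = 0.0171), and this was lost without replicate 2 of DMSO (0.49, adjusted p = 0.139) or replicate 1 of JQ1 (0.35, adjusted p = 0.158), and in a fit of only the libraries compared (adjusted p = 0.0667).

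With DMSO, both libraries in 2iL were above both in unmodified cells in serum/LIF for 6 of the 7 genes, against 39.3% of all genes tested, and both knockout libraries were for 5 of 7, against 36.3%. With JQ1, both 2iL libraries were below those of unmodified cells in serum/LIF for 4 of 7, against 38.7% of all genes, and above them for 2 of 7, Ceacam1 and Cd80, against 37.1%. The choice of the genes bears on these counts too, and nothing is read from them. Per length, in the TPM values that the authors deposited, Nphs1 was the most abundant of the 7 in 2iL with DMSO, at 31.0 ± 9.09 TPM, and Plekha6 the least, at 1.82 ± 0.283 TPM (SD, n = 2 each). Ceacam1 at 12.97 ± 1.00 and Mmp14 at 13.8 ± 1.08 TPM led in knockout cells with DMSO, and their libraries overlapped with each other, and those of Ceacam1 with those of Nphs1 at 11.7 ± 1.86 TPM. In unmodified cells in serum/LIF with DMSO, Mmp14 at 55.9 ± 6.43 TPM stood far above the other 6 genes, the next being Nphs1 at 7.17 ± 2.93 TPM. The mean transcript length that the authors' counter assigned to a gene reflects its estimated mix of isoforms. For Atp2a3 it was 4530 ± 89.1 bases with JQ1 and 3929 ± 47.9 bases with DMSO in knockout cells, and for Kbtbd11 6359 ± 152.3 and 5876 ± 47.1 bases. These JQ1 lengths in knockout cells rest on 83 and 48 counts. In 2iL the lengths were 4363 ± 273 and 4407 ± 38 bases for Atp2a3. Kbtbd11 was shorter with JQ1 there, at 5696 bases in both libraries against 5998 ± 39.8 bases with DMSO. In unmodified cells in serum/LIF they were 3731.5 ± 104.3 and 3628 ± 1176.6 bases for Atp2a3, and 6079 ± 42.5 and 6065 ± 92.3 bases for Kbtbd11. Cd80 has a single length of 1701 bases in every library.

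Related genes were grouped by the member they belong with. Among 13 tested metalloproteinases and inhibitors around Mmp14, 5 fell with JQ1 in 2iL, 7 in knockout cells and 2 in unmodified cells in serum/LIF, where 2 rose. When a library was left out, the lower genes numbered 1 to 5, 5 to 7 and 2 to 3. The median log2 fold change was -0.56 in 2iL, -0.99 in knockout cells and -0.30 in unmodified cells in serum/LIF, against -0.06, -0.06 and -0.02 over all genes tested. Mmp2, the protease that MMP14 activates, fell in all settings, averaging 0.236 ± 0.0927 CPM with JQ1 and 4.21 ± 1.65 CPM with DMSO in 2iL (-4.07 ± 0.44, adjusted p = 4.2e-05), 4.88 ± 1.70 and 20.1 ± 0.718 CPM in knockout cells (-2.01 ± 0.24, adjusted p = 7.8e-05) and 17.7 ± 1.81 and 57.1 ± 0.0423 CPM in unmodified cells in serum/LIF (-1.69 ± 0.22, adjusted p = 0.00032; SD, n = 2 each). Mmp9, another secreted gelatinase, fell in knockout cells (-2.68, adjusted p = 0.000173) and in unmodified cells in serum/LIF (-2.38, adjusted p = 0.000143), and its change in 2iL was -1.83 from few counts (adjusted p = 0.102).

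Mmp17 and Mmp25 encode metalloproteinases held in the membrane by a lipid anchor. In knockout cells Mmp17 fell by 1.19 (adjusted p = 0.000226) and Mmp25 by 3.46 on the log2 scale (adjusted p = 0.000718). Mmp17 was the gene of this group whose JQ1 response differed between knockout and unmodified cells under all 18 alternatives, with 11.9 ± 0.405 CPM with JQ1 and 27.1 ± 0.288 CPM with DMSO in knockout cells and 17.6 ± 2.03 CPM with JQ1 and 11.8 ± 1.98 CPM with DMSO in unmodified cells in serum/LIF (SD, n = 2 each). The difference of responses was -1.78 (adjusted p = 0.00184). Its rise in unmodified cells in serum/LIF (0.59, adjusted p = 0.0236) was lost without replicate 1 of the DMSO group (0.42, adjusted p = 0.173) or replicate 2 of the JQ1 group (0.49, adjusted p = 0.103), and when only the libraries compared were fitted (adjusted p = 0.0829). Its fall in 2iL (-0.57, adjusted p = 0.0206) was likewise lost without replicate 1 of DMSO (-0.54, adjusted p = 0.0868) or replicate 2 of JQ1 (-0.38, adjusted p = 0.203). Timp3, an inhibitor of metalloproteinases, fell in knockout cells (-0.73, adjusted p = 0.0378), with adjusted p-values from 0.0505 to 0.27 without either serum/LIF DMSO library of unmodified cells, without knockout DMSO replicate 2 or without knockout JQ1 replicate 2. Fibroblast markers fell with several of these genes, as given for Mmp14, and their part was not tested.

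Among 10 genes of the PLEKHA family and partners of its members, 2 rose and 1 fell with JQ1 in 2iL, 2 fell in knockout cells, and 3 rose and 1 fell in unmodified cells in serum/LIF. Leaving out a library gave 0 to 3 genes that rose in 2iL and in unmodified cells in serum/LIF. Medians were 0.05, -0.04 and 0.06 in that order. Plekha4 fell in knockout cells, to 0.328 ± 0.0702 CPM with JQ1 against 1.88 ± 1.22 CPM with DMSO (SD, n = 2 each; -2.45, adjusted p = 0.0035). Its changes in 2iL (-1.39, adjusted p = 0.0189) and in unmodified cells in serum/LIF (-1.39, adjusted p = 0.026) were no longer called, at adjusted p-values from 0.0729 to 0.155, without 2iL DMSO replicate 2, either 2iL JQ1 library, serum/LIF DMSO replicate 2 or serum/LIF JQ1 replicate 1. Plekha7, which encodes a protein of the epithelial adherens junction, rose in 2iL (0.44, adjusted p = 0.0101) and fell in knockout cells (-0.39, adjusted p = 0.0154). The 2iL call was lost without DMSO replicate 1 or JQ1 replicate 1, and the knockout call without DMSO replicate 1 or either JQ1 library, at adjusted p-values from 0.074 to 0.161. Adam10, a protease at junctions, rose in 2iL (0.46, adjusted p = 0.0273), which was lost without DMSO replicate 1 or either JQ1 library there, at adjusted p-values from 0.072 to 0.169.

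Among 18 genes of calcium stores and pumps around Atp2a3, 3 rose and 5 fell in 2iL, 1 rose and 9 fell in knockout cells, and 1 rose and 5 fell in unmodified cells in serum/LIF. Leaving out a library gave 3 to 4, 6 to 10 and 3 to 5 genes that fell. Medians were -0.16, -0.54 and -0.14. Orai2, a subunit of the calcium channel of the plasma membrane that opens when stores empty, fell in all settings, with log2 fold changes of -2.53 in 2iL (adjusted p = 0.000478), -2.12 in knockout cells (adjusted p = 0.000425) and -1.54 in unmodified cells in serum/LIF (adjusted p = 0.00327). Ryr3, a calcium release channel, fell in 2iL, to 0.0216 CPM with JQ1 against 3.52 CPM with DMSO (-6.89, adjusted p = 0.000147) and in unmodified cells in serum/LIF (-3.57, adjusted p = 0.00186). Its fall in knockout cells (-2.99, adjusted p = 0.0084) was lost without replicate 2 of the DMSO group (-2.43, adjusted p = 0.0654) or replicate 1 of the JQ1 group (-3.17, adjusted p = 0.0596).

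Atp2b2 and Atp2b4 encode calcium pumps of the plasma membrane. Atp2b2 fell in 2iL, to 0.0647 ± 0.0915 CPM with JQ1 against 7.02 ± 4.60 CPM with DMSO (SD, n = 2 each; -6.49, adjusted p = 9.7e-05), and its DMSO libraries were far apart. Its values in knockout cells (-2.43, adjusted p = 0.0671) and in unmodified cells in serum/LIF (-1.69, adjusted p = 0.16) did not pass with edgeR, while DESeq2 called that in knockout cells (-2.52, adjusted p = 0.0404). Atp2b4 fell in knockout cells, to 4.37 ± 0.428 CPM with JQ1 against 20.4 ± 3.85 CPM with DMSO (-2.21, adjusted p = 3.5e-05), and in unmodified cells in serum/LIF (-1.34, adjusted p = 0.00143), and had a value of -0.40 in 2iL (adjusted p = 0.161). Itpr3, a receptor that releases stored calcium, fell in knockout cells, to 41.0 ± 2.60 CPM with JQ1 against 125.7 ± 15.7 CPM with DMSO (-1.62, adjusted p = 6.1e-05), and had values of 0.35 in 2iL (adjusted p = 0.173) and -0.30 in unmodified cells in serum/LIF (adjusted p = 0.28).

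Among 14 BTB-kelch and cullin 3 genes around Kbtbd11, 2 rose and 2 fell in 2iL, 2 rose and 1 fell in knockout cells, and 3 rose and 0 fell in unmodified cells in serum/LIF with edgeR. There 0 also fell at an unadjusted p under 0.05 and with DESeq2. The genes that rose numbered 1 to 4, 1 to 2 and 1 to 3 when a library was left out. Medians were 0.10, 0.22 and 0.15. Klhl13, a substrate adaptor of cullin 3, rose in 2iL, to 110.9 ± 2.71 CPM with JQ1 against 49.2 ± 4.39 CPM with DMSO (SD, n = 2 each; 1.17, adjusted p = 0.000188), and its response differed from that in unmodified cells in serum/LIF by 1.20 (adjusted p = 0.00784). Klhl12 rose in unmodified cells in serum/LIF (0.54, adjusted p = 0.00411) and Rbx1, the ring finger subunit of cullin ligases, in knockout cells (0.62, adjusted p = 0.00187). Klhl7 (-0.73, adjusted p = 0.00738) and Kbtbd7 (-0.50, adjusted p = 0.0361) fell in 2iL. Without 2iL DMSO replicate 2 or JQ1 replicate 1 the Klhl7 call was lost (adjusted p = 0.0756 and 0.0924), and without any one 2iL library, or either knockout DMSO library, the Kbtbd7 call was lost (adjusted p between 0.0514 and 0.234). Fitting only the libraries compared ended both calls (adjusted p = 0.0519 for Klhl7 and 0.0797 for Kbtbd7), and dropping the filter on low counts ended that of Kbtbd7 (adjusted p = 0.0711).

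Among the Ceacam1 relatives and phosphatases, 5 of 14 genes were tested. In 2iL 1 rose, in knockout cells 2 fell, and in unmodified cells in serum/LIF 1 rose and 1 fell. Leaving out a library gave 0 to 2 lower genes in knockout cells. Medians were 0.02, -1.40 and -0.58. Ceacam20 fell in knockout cells, to 3.59 ± 1.14 CPM with JQ1 against 12.2 ± 1.39 CPM with DMSO (SD, n = 2 each; -1.78, adjusted p = 0.00363), and narrowly missed without JQ1 replicate 1 (-1.47, adjusted p = 0.0509). CEACAM1 signals through the phosphatases SHP-1 and SHP-2. Ptpn6 (SHP-1) fell in unmodified cells in serum/LIF (-0.74, adjusted p = 0.00375) and Ptpn11 (SHP-2) rose in 2iL (0.65, adjusted p = 0.003). Ptpn11 also rose in unmodified cells in serum/LIF (0.49, adjusted p = 0.0182), a call lost without replicate 2 of the DMSO group (0.38, adjusted p = 0.143) or replicate 1 of the JQ1 group (0.33, adjusted p = 0.136), and when only the libraries compared were fitted (adjusted p = 0.082).

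Of the B7 family and its receptors around Cd80, 5 of 11 genes were tested. The receptor gene Cd28 was one of them and averaged at most 0.796 CPM in any group. In 2iL 1 rose and 1 fell, in knockout cells 3 fell, and in unmodified cells in serum/LIF 2 fell. When a library was left out, 1 to 3 fell in knockout cells and 1 to 2 in unmodified cells in serum/LIF. Medians were -0.72, -0.72 and -0.57. Cd276, an inhibitory B7 relative, had 8.94 ± 0.962 CPM with JQ1 and 34.8 ± 4.03 CPM with DMSO in 2iL (-1.96, adjusted p = 4.9e-06) and 32.1 ± 1.35 CPM with JQ1 and 53.0 ± 0.641 CPM with DMSO in knockout cells (-0.72, adjusted p = 0.00169; SD, n = 2 each). Its change in unmodified cells in serum/LIF was -0.45 (adjusted p = 0.0288), a call lost without JQ1 replicate 2 or either DMSO library, or in a fit of only the libraries compared (adjusted p from 0.0519 to 0.21), and the response in 2iL differed from it by -1.51 (adjusted p = 0.0017). Cd274 (PD-L1) fell in unmodified cells in serum/LIF, to 1.80 ± 0.283 CPM with JQ1 against 6.39 ± 1.59 CPM with DMSO (-1.83, adjusted p = 0.00276). In knockout cells Cd274 changed by -1.34 (adjusted p = 0.0425), which was lost under DESeq2 (adjusted p = 0.0618) and without any one knockout library or serum/LIF DMSO replicate 1 (adjusted p from 0.0599 to 0.189). Icosl rose in 2iL, to 3.87 ± 1.14 CPM with JQ1 against 1.61 ± 0.451 CPM with DMSO (SD, n = 2 each; 1.24, adjusted p = 0.00308). It encodes the ligand of the T cell receptor ICOS.

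Among 15 nephrin partners, 2 rose and 3 fell in 2iL, 2 rose and 5 fell in knockout cells, and 3 rose and 3 fell in unmodified cells in serum/LIF. With a library omitted, 2 to 3, 2 to 5 and 1 to 4 genes fell. Medians were 0.00, -0.50 and 0.14. Kirrel2 had the largest fall of the 15 in 2iL and in unmodified cells in serum/LIF, and in knockout cells the fitted change of Trpc6, which had no counts with JQ1 there, was larger. Kirrel, its relative, fell in knockout cells, to 38.1 ± 4.56 CPM with JQ1 against 99.2 ± 1.73 CPM with DMSO (SD, n = 2 each; -1.38, adjusted p = 0.00248), and had a value of 0.18 in 2iL (adjusted p = 0.652). Fyn, the kinase that phosphorylates nephrin, rose in unmodified cells in serum/LIF (0.74, adjusted p = 0.000942) and fell in 2iL (-0.59, adjusted p = 0.00377). Leaving out JQ1 replicate 1 ended the 2iL call (-0.49, adjusted p = 0.0532), and the responses in these settings differed by -1.34 (adjusted p = 0.00148). Tjp1, a junction scaffold, rose in 2iL (0.85, adjusted p = 0.00494), and narrowly missed without DMSO replicate 1 (0.71, adjusted p = 0.0522).

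**Figure D5:**
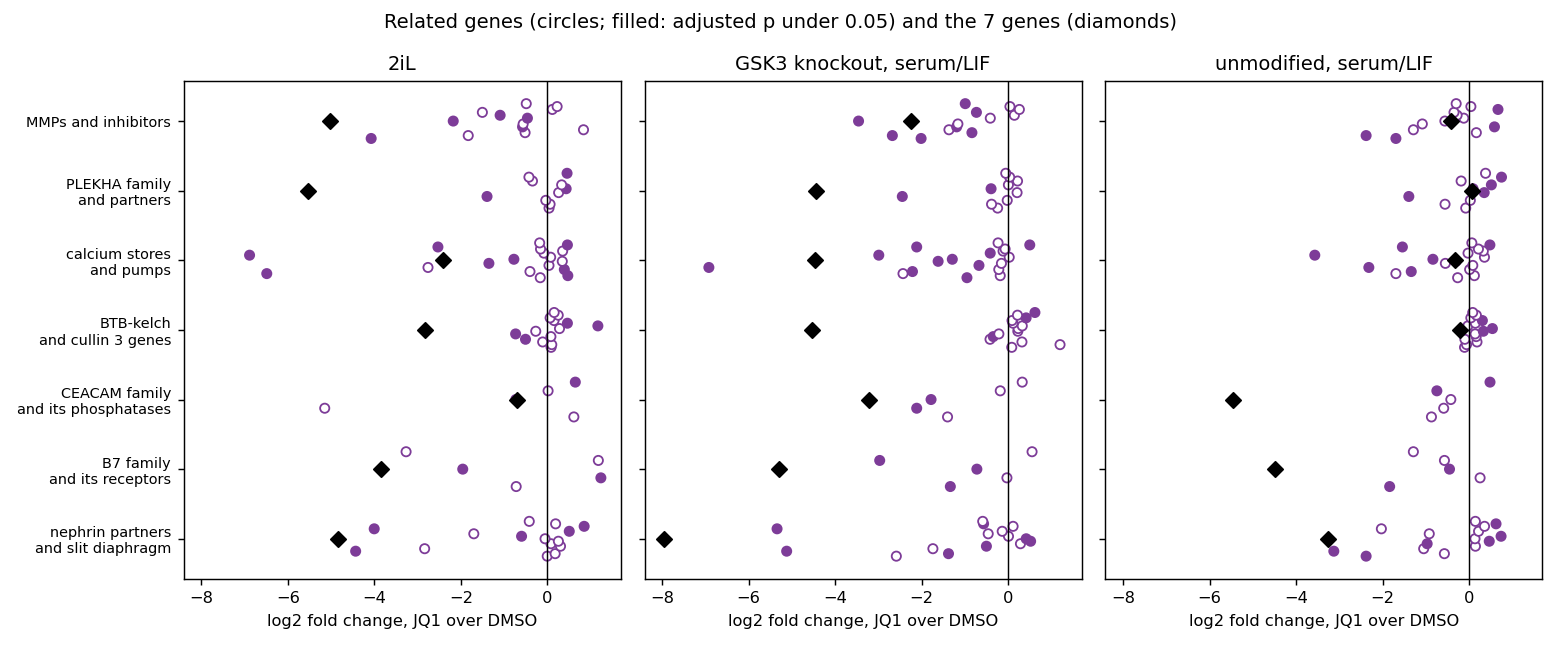
Fitted log2 fold change of JQ1 over DMSO for the related genes of each list (circles, filled where the adjusted p is under 0.05) and for the gene the list belongs to (black diamond), in 3 settings. The 7 genes lie at the lower end of most lists, which follows from their selection, and Mmp2, Ryr3, Atp2b2 and Kirrel2 are among the others below -4 in 2iL.

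The nearest tested genes within 100 kb were set beside the members. Next to Mmp14, Mrpl52 lay at 25.1 ± 2.45 CPM with JQ1 and 31.2 ± 1.02 CPM with DMSO in 2iL (-0.31, adjusted p = 0.227). Beside Cd80, Adprh lay at 70.9 ± 3.78 CPM with JQ1 and 86.3 ± 12.9 CPM with DMSO there (-0.28, adjusted p = 0.104), and beside Ceacam1, Lipe lay at 4.16 ± 0.0167 CPM with JQ1 and 3.53 ± 0.411 CPM with DMSO in unmodified cells in serum/LIF (0.25, adjusted p = 0.423; SD, n = 2 each). On the other side of Mmp14, Lrp10 fell in knockout cells (-0.43, adjusted p = 0.0475), a call lost in 8 of 18 alternatives. 4732471J01Rik, which overlaps Ceacam1, also fell in knockout cells (-2.73, adjusted p = 0.0115), a call lost in 3 of 16. Its value was 0.05 in 2iL (adjusted p = 0.967). In unmodified cells in serum/LIF, where Ceacam1 kept 2.55% of its RNA, it averaged 0.286 CPM with JQ1 and 0.28 CPM with DMSO (0.01, adjusted p = 0.995). Beside Nphs1, Arhgap33os had 0.0863 CPM with JQ1 and 0.621 CPM with DMSO in 2iL (-2.62, adjusted p = 0.0195), a call lost in 3 of 17. Beside Plekha6, Ppp1r15b fell in knockout cells (-0.69, adjusted p = 0.00176) and had a value of 0.12 in 2iL (adjusted p = 0.521). On its other side, Ren1, the renin gene, had no counts with JQ1 in knockout cells and averaged 0.48 CPM with DMSO (at least 3.56-fold lower with the same limit of 3 counts; adjusted p = 0.00763, or 0.0671 without JQ1 replicate 1). In 2iL Ren1 averaged 0.107 CPM with JQ1 and 0.621 CPM with DMSO (-2.57, adjusted p = 0.0497). That call was lost under DESeq2 (adjusted p = 0.157), other scaling, no filter on low counts, and without any single library other than the DMSO libraries of unmodified cells in serum/LIF (adjusted p from 0.0509 to 0.31). Beside Atp2a3, Camkk1 fell in knockout cells (-1.68, adjusted p = 0.00159), and its change in unmodified cells in serum/LIF (-1.05, adjusted p = 0.0205) was lost without DMSO replicate 1 or either JQ1 library, or when only the libraries compared were fitted (adjusted p from 0.0502 to 0.276). Zzef1, on the other side, rose in 2iL (0.69, adjusted p = 0.0177), which was lost without DMSO replicate 1 or either JQ1 library (adjusted p from 0.0622 to 0.157). Timmdc1, on the other side of Cd80, rose in knockout cells (0.69, adjusted p = 0.00552), which was lost without replicate 1 of the DMSO group (0.59, adjusted p = 0.0638). Around Kbtbd11, Arhgef10 fell in 2iL (-1.16, adjusted p = 0.00136), with a less stable call in knockout cells (-0.57, adjusted p = 0.0373) that was lost under DESeq2, with no filter on low counts, and without any one knockout library or 2iL JQ1 library (adjusted p from 0.0548 to 0.174). Myom2 fell in 2iL (-3.14, adjusted p = 0.000121) and in unmodified cells in serum/LIF (-2.80, adjusted p = 0.00363), where Kbtbd11 itself kept 88.4% of its RNA. In knockout cells, where Kbtbd11 kept 4.31%, Myom2 had a value of -0.33 (adjusted p = 0.806). Its averages there, 0.0965 CPM with JQ1 and 0.132 CPM with DMSO, were near the floor.

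The genes whose level was most like that of a member were ranked by Pearson's r of log2 CPM over the 12 libraries. The libraries form 6 groups that share treatments and media, so the values only describe likeness. The members were selected on their levels in these same groups, so nothing is read from likeness between members. By this measure Atp2a3 and Kbtbd11 were each other's nearest gene of all tested (r = 0.975). Osbpl10 (r = 0.96) and Gm21955 (r = 0.952) followed for Atp2a3, and Dnah10 and Gm21955 (r = 0.964 for both) for Kbtbd11. Ranked by Spearman's rho, Gm21955 was nearest to Kbtbd11 (0.986), before Atp2a3 (0.972), and Dnah10 ranked 148. Nphs1 was most like Aplp1, a relative of the amyloid precursor protein gene (r = 0.99), and next like Kirrel2 (r = 0.966) and Slc12a8 (r = 0.965). Aplp1 kept a higher level than Nphs1 with JQ1, averaging 22.9 CPM in 2iL, 7.36 CPM in knockout cells and 18.4 CPM in unmodified cells in serum/LIF, against 60.9, 47.2 and 41.6 CPM with DMSO. Mmp14 was most like Apba2 (r = 0.991), Hacd4 (r = 0.99) and Cd276 (r = 0.986), which like it were highest in unmodified cells in serum/LIF. Plekha6 was most like Dkk3 (r = 0.974), which encodes a secreted protein of the Dickkopf family, then Cacng6 (r = 0.969) and the claudin gene Cldn3 (r = 0.954). Ceacam1 was most like Myh13 (r = 0.979), which averaged 12.2 CPM with JQ1 and 28.1 CPM with DMSO in 2iL, 4.58 and 29.1 CPM in knockout cells, and 0.471 and 6.39 CPM in unmodified cells in serum/LIF. Slc17a9 (r = 0.967) and Notumos (r = 0.965) followed. Cd80 was most like Tmem106a (r = 0.984), Def6 (r = 0.981) and Mybpc3 (r = 0.98). Among the members themselves, r was 0.916 between Kbtbd11 and Nphs1 and 0.905 between Cd80 and Nphs1, and -0.34 between Mmp14 and Ceacam1.

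Markers of ES cells were present in every library, with a summed level of 6 such genes from 1069 to 3000 CPM. Of these 6 genes, Nanog, Zfp42 and Tdgf1 fell with JQ1 in unmodified cells in serum/LIF (-1.60, -1.07 and -1.11, with adjusted p-values of 3.3e-05, 0.00574 and 0.0032), and the call of Zfp42 was lost without DMSO replicate 2 of that setting (-0.75, adjusted p = 0.0618). Sox2 rose in knockout cells (0.82, adjusted p = 0.0145), which was lost without replicate 1 of DMSO (0.76, adjusted p = 0.0919) or replicate 2 of JQ1 (0.68, adjusted p = 0.102). Utf1 rose in 2iL (0.64, adjusted p = 0.019), which was lost without replicate 2 of DMSO or either JQ1 library (adjusted p from 0.0577 to 0.104). Tdgf1 also fell in knockout cells (-1.71, adjusted p = 0.000112) and in 2iL (-0.73, adjusted p = 0.022), where it no longer passed without DMSO replicate 1 or either JQ1 library (adjusted p from 0.0845 to 0.119). Primitive endoderm markers summed to 1.99 and 2.37 CPM with JQ1 and 5.55 and 3.41 CPM with DMSO in 2iL, to 60.2 and 44.2 CPM with JQ1 and 94.5 and 66.8 CPM with DMSO in knockout cells, and to 34.4 and 22.4 CPM with JQ1 and 53.7 and 37.3 CPM with DMSO in unmodified cells in serum/LIF. Both JQ1 sums lay below both DMSO sums in each setting, as the levels of most members did. Of the 6 genes 2 fell in 2iL, 1 in knockout cells and 1 in unmodified cells in serum/LIF, with 0 to 3, 0 to 1 and 0 to 1 when a library was left out. Trophectoderm markers summed to 118.5 and 140.7 CPM with JQ1 and 79.7 and 70.98 CPM with DMSO in 2iL, to 130.6 and 115.8 CPM with JQ1 and 122.6 and 125.8 CPM with DMSO in knockout cells, and to 1355 and 712.3 CPM with JQ1 and 1769 and 901.9 CPM with DMSO in unmodified cells in serum/LIF. Of 5 trophectoderm genes tested, 1 rose and 1 fell in 2iL, and 1 rose and 2 fell in knockout cells. Eomes fell in knockout cells (-1.59, adjusted p = 8.1e-05) and was the 1 gene that fell in unmodified cells in serum/LIF (-1.71, adjusted p = 0.00014). The 2iL sum was mostly Tfap2c, which rose there (0.92, adjusted p = 0.00822), a call lost without JQ1 replicate 2 (0.72). Krt8 and Krt18 made up most of the sum in unmodified cells in serum/LIF. The part of such cells in the members' levels was not tested.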

How the data were processed

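RNA of 12 mouse ES cell libraries was sequenced as paired reads. The authors deposited 1 table per library with expected counts and TPM, per the file headers, and per the submitters' processing notes, RSEM, STAR 2.5.2 and bcl2fastq were used with mm10, and DESeq2 1.18.1 is named too. The annotation release, strand setting and filters are not given in the sources used here. Of 52550 identifiers, 52403 matched GENCODE M21 (GRCm38) without their version. The authors' length column in bases and deposited TPM values were used as they stand, and FPKM was not used.

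The deposited expected counts were rounded and fitted in R 4.3.3 with edgeR 4.0.16, which kept 16987 genes by filterByExpr (minimum count 10, total 15), scaled by TMM, and ran 1 quasi-likelihood fit of 6 groups without a replicate block. Tests were two-sided with Benjamini-Hochberg adjustment over all genes and a threshold of 0.05. The fit was tested on simulated data. Alternatives were DESeq2 1.42.0, RLE scaling, other filters, a fit of only the libraries compared, a replicate block, TPM (pseudocount 0.1) and each library left out. Binomial intervals came from SciPy 1.17.1.

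The members and all gene lists were chosen with earlier results of these data known. Named related genes are at most 5 a list with a mean of at least 1 CPM, those with the largest change among genes that passed in at least 1 setting; neighbours are the closest tested genes within 100 kb; likeness gives the top 3 genes. Not every gene so chosen is discussed. Libraries of a group differed by more than sampling noise, which does not show that they came from separate cultures. Each was counted as 1 sample. Protein sequences were not used here.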

Additional observations from a re-analysis of the deposited data

Results flagged for a closer look

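The 7 genes themselves were chosen for responses that differ between settings and are not listed again. Of the related and neighbouring genes named, those below had a JQ1 response that differed between settings in edgeR's test of the difference, in log2 units with unmodified cells in serum/LIF subtracted.

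Between 2iL and serum/LIF, the response of Cd276 differed by -1.51, that of Fyn by -1.34 and that of Klhl13 by 1.20, and these calls held under all 18 alternatives. The response of Mmp2 differed by -2.38 (adjusted p = 0.0247), and was no longer called without either serum/LIF DMSO library, serum/LIF JQ1 replicate 2, 2iL DMSO replicate 1 or either 2iL JQ1 library (adjusted p from 0.051 to 0.144). The response of Mmp17 differed by -1.16 (adjusted p = 0.0141) and was lost without serum/LIF DMSO replicate 1 (adjusted p = 0.0561) or 2iL JQ1 replicate 2 (adjusted p = 0.0725). The response of Arhgef10, the neighbour of Kbtbd11, differed by -1.20 (adjusted p = 0.024), and was lost without serum/LIF DMSO replicate 2, serum/LIF JQ1 replicate 1, 2iL DMSO replicate 1 or either 2iL JQ1 library (adjusted p from 0.0642 to 0.113), and when only the libraries compared were fitted (adjusted p = 0.0597).

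Between knockout and unmodified cells in serum/LIF, the response of Mmp17 differed by -1.78, which held under all 18 alternatives. The response of Mmp25 differed by -2.90 (adjusted p = 0.024), and was lost without serum/LIF DMSO replicate 2, knockout DMSO replicate 1 or either knockout JQ1 library (adjusted p from 0.0505 to 0.151). That of Itpr3 differed by -1.32 (adjusted p = 0.0161), and was lost without DMSO replicate 1 of either line or either knockout JQ1 library (adjusted p from 0.0543 to 0.0811). That of Fyn differed by -0.73 (adjusted p = 0.028), and was lost without any one of these 8 libraries other than serum/LIF JQ1 replicate 2 (adjusted p from 0.0663 to 0.139). Podxl, a podocyte marker also on the list of nephrin partners, had a response that differed by -1.19 (adjusted p = 0.0152), a call that did not hold with each library left out. No cause of these differences was tested.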

How the results depend on the processing

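Of 665 values of the members' log2 fold changes and differences under the alternatives, 646 lay within the spread of the replicates, 19 moved further and 0 reversed. Of those that moved, 16 came from TPM with its pseudocount, among them -5.78 for Nphs1 in knockout cells and -3.73 for Plekha6 in 2iL, and 3 from a library left out. The difference of Cd80 between 2iL and serum/LIF ran from -0.20 to 1.14, and the response of Plekha6 in unmodified cells in serum/LIF from -0.03 to 0.34, so neither has a settled sign. Of 4007 values of related and neighbouring genes, 3742 kept direction and call, 158 lost the call, 107 gained it and 0 reversed.

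The number of genes passing in unmodified cells in serum/LIF was 2245 when only the libraries compared were fitted, and that for the difference between 2iL and serum/LIF was then 431. Without a filter on low counts the differences passed for 1478 genes in 2iL and 2011 in knockout cells, and DESeq2 gave 1303 for the difference in knockout cells. With 1 library left out the counts ran from 2530 to 5330 in 2iL, from 3186 to 6304 in knockout cells and from 1927 to 4044 in unmodified cells in serum/LIF, and for the differences from 330 to 784 in 2iL and from 212 to 1779 in knockout cells. The cause was not tested.

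Replicate numbers were shared between JQ1 and DMSO libraries, but each comparison holds only 2 such pairs, too few to settle whether the numbers pair the cultures. Deviations of same-numbered libraries correlated at 0.118 in 2iL, 0.117 in knockout cells and 0.185 in unmodified cells in serum/LIF. A replicate block gave 5938, 6950 and 4895 genes passing in these settings, and 1463 and 2150 for the differences in 2iL and in knockout cells. Of 225 values of named related and neighbouring genes, the block gained the call for 27, among them the differences of Kirrel2 in 2iL (-1.37, adjusted p = 0.0159) and in knockout cells (-2.02, adjusted p = 0.00395), and lost it for 1, Ren1 in 2iL (adjusted p = 0.0528). Depth limits Plekha6, Cd80, Nphs1 and Ceacam1, which had 5 or fewer counts per JQ1 library where they were lowest.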
